A study of Mus musculus with 4 samples.

Results

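The cytosolic ribosomal protein genes were followed in mouse bone marrow neutrophils given amyloid-beta 40 (Aβ40) or solvent. Members were taken from the table of raw counts as protein-coding genes whose symbol begins with Rpl or Rps and a digit, or is Rplp0, Rplp1, Rplp2 or Rpsa, leaving out the Rps6k kinases. This gave 94 of 54532 genes, 35 of the small and 59 of the large subunit. By name, 85 encode a structural ribosomal protein or its paralog, 8 carry a pseudogene suffix although the file calls them protein-coding, and Rps19bp1 encodes a binding partner of a ribosomal protein. A further group of 392 pseudogene entries, with a ribosomal protein in their name or description, was not counted as members.

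The neutrophils came from wild-type mice (strain, sex and age are not given in the labels) and received DMSO, a solvent, or 4 h of Aβ40 at 20 µg/ml. Aβ40 is a fragment of the amyloid precursor protein that deposits in the walls of brain vessels. The study's question was by what mechanism Aβ40 makes neutrophils form extracellular traps, webs of chromatin and granule proteins. There were 2 libraries a group (DMSO 1, DMSO 2, Aβ40 1, Aβ40 2). Since no label tells whether a group's libraries came from different mice or cultures, each p-value reflects the spread between these libraries alone, and that spread may be technical. Unless stated otherwise, 4 values in a series are for DMSO 1, DMSO 2, Aβ40 1 and Aβ40 2 in this order.

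The ribosome joins a small subunit, which reads the mRNA, to a large subunit, which forms the peptide bond, and each structural protein is needed in about equal number. Most of the mRNAs begin with a C followed by a run of pyrimidines, the terminal oligopyrimidine (TOP) motif, through which mTORC1 and the protein LARP1 control their translation and stability. Maturing neutrophils lose ribosomes as they fill with granules, and mature ones make little new protein until they are stimulated.

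Of the members, 66 matched a RefSeq promoter (GRCm38.p6). The following 55-base windows run 5′ to 3′ on the gene's strand, with 30 bases before the annotated start and 25 from it. Capitals mark a C followed by at least 4 pyrimidines that begins within 10 bases of the annotated start, taking the run that spans the start or lies nearest to it. They are shown because Rpl15 and Rpl37 were the members with the lowest p-values and Rpl38 was among the lowest in DMSO 2. Also shown are Rps6, which varied like the typical member, and Rplp2, which had a lower mean with Aβ40 although the groups overlapped. Rps27 and Rps27rt are shown because they share their start.
Rpl15: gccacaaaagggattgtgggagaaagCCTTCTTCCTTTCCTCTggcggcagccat
Rpl37: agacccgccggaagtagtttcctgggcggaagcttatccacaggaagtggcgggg
Rpl38: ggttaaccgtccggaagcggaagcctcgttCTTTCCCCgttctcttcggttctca
Rps6: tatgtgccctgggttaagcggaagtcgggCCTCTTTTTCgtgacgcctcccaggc
Rplp2: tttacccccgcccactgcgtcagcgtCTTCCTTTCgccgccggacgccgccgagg
Rps27: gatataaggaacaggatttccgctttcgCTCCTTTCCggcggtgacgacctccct
Rps27rt: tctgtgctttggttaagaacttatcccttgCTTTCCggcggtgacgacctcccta

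These windows lie at chr14:18270962-18271016 on the minus strand (Rpl15), chr15:5116583-5116637 on the plus strand (Rpl37), chr11:114668550-114668604 on the plus strand (Rpl38), chr4:86857343-86857397 on the minus strand (Rps6), chr7:141447621-141447675 on the plus strand (Rplp2), chr3:90213624-90213678 on the minus strand (Rps27) and chr9:114982715-114982769 on the minus strand (Rps27rt). A C followed by at least 4 letters that are each C or T, searched on the gene's strand only, stood exactly at the annotated start of 14 of 66 members, or 21.2%, against 2.96% of 26959 other genes and 2.51% of all 32851 promoter windows. Within 10 bases on either side of the start it was found for 40 members, or 60.6%, against 34.3% of other genes and 30.7% of all windows. A gene was counted once if any of its windows held the run. The windows of Rps27 and Rps27rt, a retrotransposed copy on another chromosome, shared a run of 24 letters that began at or just after the annotated start in each. Rpl37 had no such run within 10 bases of its annotated start.

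Library depth was 17212264 to 19524125 counts, and 1 count was worth 0.0523 to 0.0585 CPM (counts scaled to library size, with TMM factors). Over 100 counts in every library were found for 82 of the 94 members, so for these counting error was small beside the spread between libraries. Of the members, 88 passed the filter on low counts, and 6 did not. Of these, Rpl10l, Rpl36-ps4 and Rpl13a-ps1 had 0 counts in all libraries, and Rpl39l, Rpl36a-ps1 and Rpl9-ps1 had few. Neutrophil granule and calcium-binding genes were abundant: 12 neutrophil markers together had 142800, 101900, 147700 and 139900 CPM in DMSO 1, DMSO 2, Aβ40 1 and Aβ40 2. The DMSO libraries differed from each other more than the Aβ40 libraries did (chi-square per degree of freedom 57.5 and 17.2). DMSO 2 was the library set apart in the ribosomal protein genes, so the results below are given with and without it.

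Ribosomal protein mRNAs made up 7.05% and 4.97% of all counts in the DMSO libraries and 7.26% and 7.72% in the Aβ40 libraries. DMSO 2 was low, while DMSO 1 lay just under the lower of the Aβ40 libraries. The mean was 6.01% ± 1.47 with DMSO and 7.49% ± 0.325 with Aβ40 (SD, n = 2 each; exact permutation test, 2-sided p = 0.333, the smallest that 2 against 2 libraries allow). Wilson 95% intervals, which cover counting error only, lay within 7.040% to 7.062% for DMSO 1 and 4.957% to 4.977% for DMSO 2. Without DMSO 2 the difference shrank from 1.48 to 0.441 percentage points. In bulk RNA, fewer cells of a type and less of an RNA per cell cannot be told apart.

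The small subunit genes took 3.62% and 2.51% of counts in the DMSO libraries and 3.55% and 3.78% in the Aβ40 libraries. The DMSO 1 value lay between the Aβ40 values, so the groups overlapped (means 3.07% ± 0.788 and 3.66% ± 0.165, SD, n = 2; exact permutation test, 2-sided p = 0.667). The large subunit genes took 3.43%, 2.46%, 3.72% and 3.94% of counts in the same order. Here the groups did not overlap, with Aβ40 higher (means 2.94% ± 0.685 and 3.83% ± 0.159, SD, n = 2; exact permutation test, 2-sided p = 0.333). Without DMSO 2 the small subunit difference was 0.0407 percentage points and the large subunit difference 0.400.

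The ratio of large to small subunit counts was 0.946 and 0.980 in the DMSO libraries and 1.047 and 1.042 in the Aβ40 libraries. It was below 1 in both DMSO libraries and above 1 in both Aβ40 libraries (means 0.963 ± 0.0241 and 1.045 ± 0.00357, SD, n = 2; exact permutation test, 2-sided p = 0.333). The difference of 0.0817 was 0.0988 without DMSO 2 and 0.0647 without DMSO 1. It was 0.0593 without Rps27a, which had the lowest log2 fold change of the members with at least 5 CPM. The split at 1 depended on the genes counted, since DMSO 2 was at 1.025 without Rps27a and at 1.014 with the pseudogene entries added. With every gene of at least 5 CPM weighted equally the ratio was 0.685, 0.688, 0.748 and 0.748 in the same order of libraries, and the groups did not overlap there either.

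**Figure D1:**
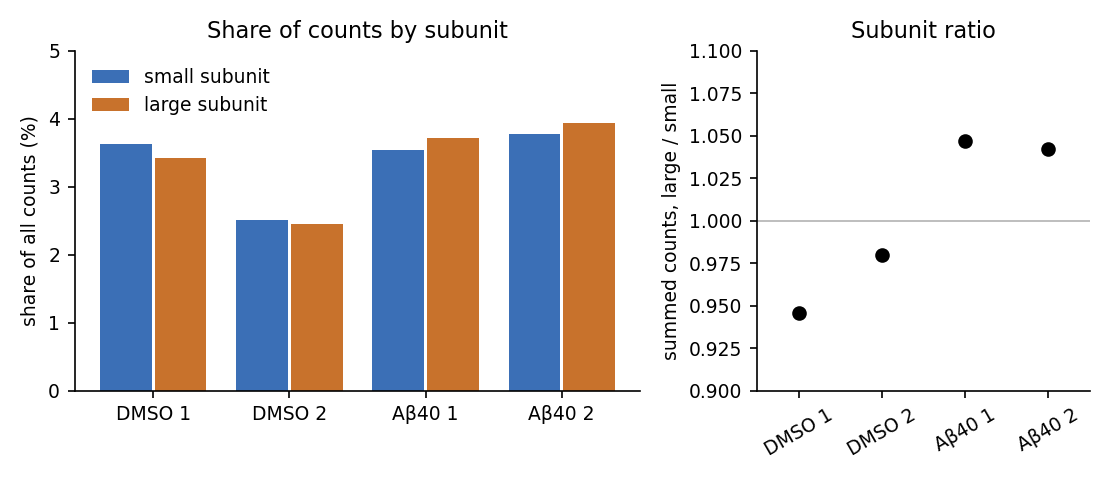
Left, the share of all counts (%) taken by small and large subunit genes in each library, as bars from 0. Right, the ratio of large to small subunit counts on an axis from 0.9 to 1.1; DMSO 2 has the lowest shares, and the ratio is 0.946 and 0.980 with DMSO against 1.047 and 1.042 with Aβ40.

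No member passed the test across all genes. With edgeR's quasi-likelihood test and Benjamini-Hochberg adjustment over 13479 genes, 0 of 88 tested members reached an adjusted p under 0.05, where 17 genes, or 0.126% of all tested, did. The lowest adjusted p among members was 0.129 (Rpl15). At an unadjusted p under 0.05, 22 members were higher with Aβ40 and 1 was lower, against 6.51% of all tested genes higher and 5.72% lower. DESeq2 called 2 members higher, Rpl15 and Rpl37, where it called 0.757% of all genes higher, while limma-voom and limma on log2 FPKM called 0.

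The log2 fold change was above 0 for 76 of the 88 members, with a median of 0.40, against 0.01 over all genes tested. Its median was 0.33 over 35 small subunit members and 0.43 over 53 large subunit members. The groups did not overlap for 47 members with Aβ40 higher and for 3 with Aβ40 lower, against 23.2% and 21.9% of all tested genes. The 3 were Rps27a and, at very low counts, Rps10 and Rpl36al. DMSO 2 was the lowest of the 4 libraries for 77 members, against 28.9% of all tested genes.

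For most members the DMSO libraries differed from each other by more than the groups did. DMSO 2 lay below DMSO 1 for 85 of 88 tested members, by a median of 0.65 on the log2 scale. Over all genes tested the median of DMSO 2 minus DMSO 1 was 0.001. For 65 members the gap between the DMSO libraries was larger than the log2 fold change between the groups. That sets single libraries against means of 2 libraries, which vary less. Set against DMSO 1 instead, Aβ40 1 was higher for 56 members, Aβ40 2 for 57 and both for 47, while both Aβ40 libraries were above DMSO 2 for 80. The gap between the libraries of a group was over 1 on the log2 scale for 21 members with DMSO and for 1 with Aβ40. The counts of this paragraph were not made over all genes.

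**Figure D2:**
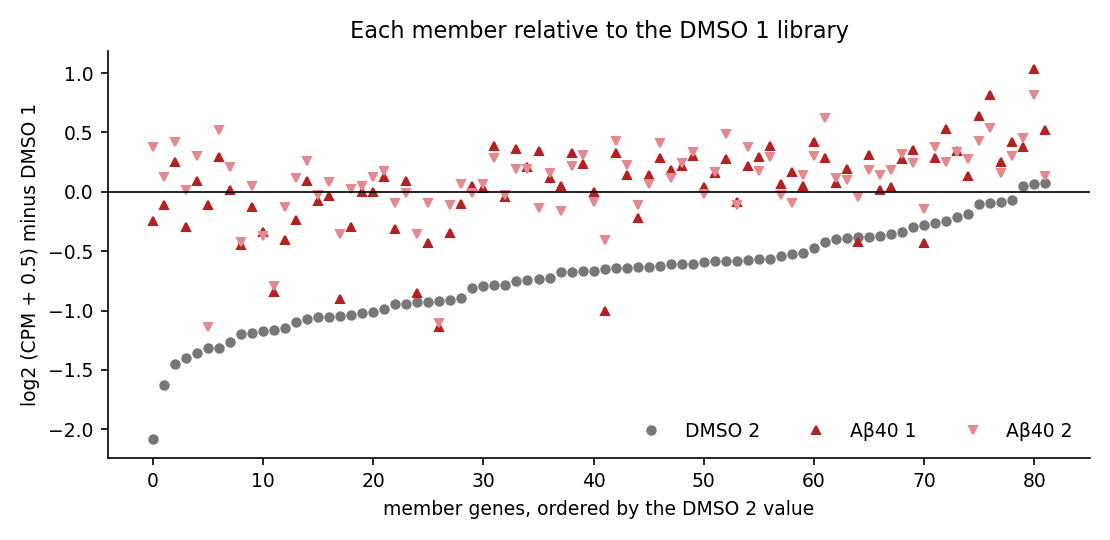
Each of the 82 members that averaged at least 5 CPM is placed by its DMSO 2 value, and points give log2 (CPM + 0.5) minus the DMSO 1 value for DMSO 2 (grey), Aβ40 1 (dark red) and Aβ40 2 (light red). The grey points lie below the line at 0 for most members, down to -2.09 for Rpl21, while the red points lie on both sides of it.

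Leaving out DMSO 2 lowered the members' median log2 fold change from 0.40 to 0.09, and leaving out DMSO 1 raised it to 0.77. In these fits 1 DMSO library is assumed to vary like the Aβ40 group. Without DMSO 1, edgeR's quasi-likelihood test called 65 members higher and 0 lower, where 5.63% of all genes were called higher. Without DMSO 2 it called 2 higher (Rpl15 and Rpl37), where 3.88% of all genes were, and 6 lower (Rps27a, Rps12-ps3, Rplp2, Rps13, Rps9 and Rps27rt), where 3.28% were. With no filter on low counts, edgeR called 6 members higher and 1 lower, where 1.17% of all genes were called in either direction. Of the 88 members, 57 had a positive log2 fold change in the fit of all libraries and in each fit without 1 library, and 5 (Rps27a, Rplp2, Rps2, Rps10 and Rpl36al) had a negative one in all of them. These fits share libraries, so they are not independent, and the same count was not made over all genes. Rps2 was named after its values were seen.

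**Figure D3:**
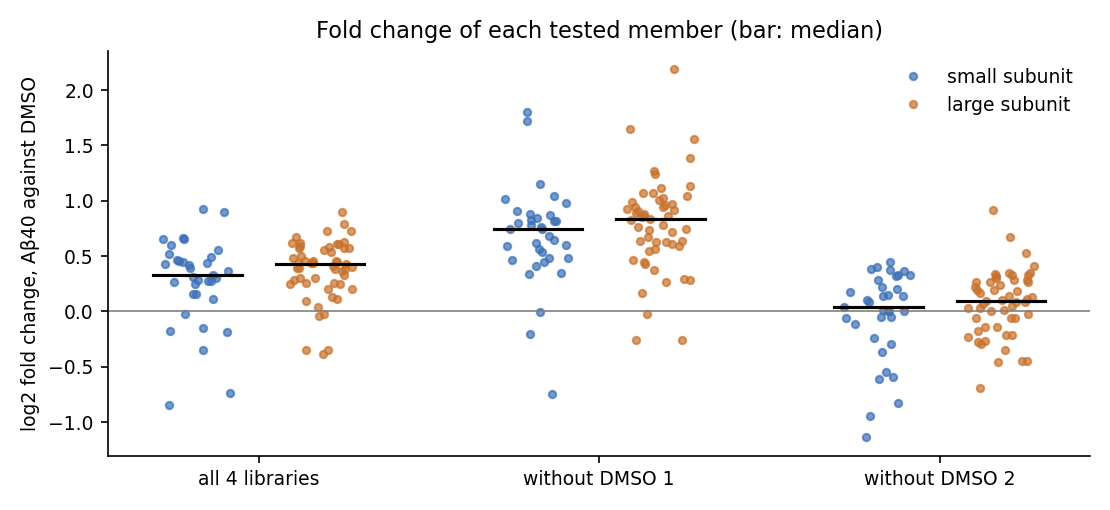
Points are the log2 fold changes, Aβ40 against DMSO, of the 88 tested members by subunit in the fit of all 4 libraries and in the fits without DMSO 1 or without DMSO 2, spread sideways for visibility, and bars are medians. The medians over both subunits are 0.40, 0.77 and 0.09.

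Rpl15 and Rpl37 (the latter was named after its values were seen) had the lowest p-values of the members, and in both the DMSO libraries lay close together below the Aβ40 libraries. Rpl15 encodes a protein of the large subunit core (ENSMUSG00000012405) and lies on chromosome 14 from 18267823 to 18271391 (mm10). It had 161 and 169 CPM in the DMSO libraries and 330 and 284 in the Aβ40 libraries. The groups did not overlap, with a log2 fold change of 0.90 (SE 0.18; edgeR adjusted p = 0.129; DESeq2 adjusted p = 0.0020).

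Rpl37, a small zinc-binding protein of the large subunit, had 218 and 203 CPM in the DMSO libraries and 383 and 315 in the Aβ40 libraries. Again the DMSO values were close and the Aβ40 values higher, with a log2 fold change of 0.73 (SE 0.18; edgeR adjusted p = 0.250; DESeq2 adjusted p = 0.0374). Without DMSO 2 the edgeR adjusted p was 0.000144 for Rpl15 and 0.00978 for Rpl37, and without DMSO 1 it was 0.000359 and 0.00153. Without Aβ40 1 it was 0.997 for both, and without Aβ40 2 it was 0.796 for both. Rpl10, which joins the large subunit late in its assembly, had the same order at a higher level, with 1161, 1083, 1812 and 1558 CPM in DMSO 1, DMSO 2, Aβ40 1 and Aβ40 2 (log2 fold change 0.59, SE 0.19; edgeR adjusted p = 0.334).

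Other members with a high fold change had a low DMSO 2. Rps29, a small zinc-binding protein of the small subunit, had 367 and 147 CPM in the DMSO libraries and 451 and 525 in the Aβ40 libraries. Its log2 fold change of 0.92 was the highest of all members (SE 0.36; edgeR adjusted p = 0.370), and DMSO 2 lay 1.31 below DMSO 1 on the log2 scale. Rps28 had 157, 57.1, 187 and 211 CPM in the same order (log2 fold change 0.89, SE 0.38; edgeR adjusted p = 0.395). For both genes the Aβ40 libraries lay above DMSO 1 by less than DMSO 1 lay above DMSO 2.

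Rpl21, a large subunit protein, had 222 and 51.8 CPM in the DMSO libraries and 186 and 287 in the Aβ40 libraries. The groups overlapped, since Aβ40 1 lay below DMSO 1 (log2 fold change 0.79, SE 0.53; edgeR adjusted p = 0.574). Rpl38, known for its role in the translation of Hox mRNAs, had 233, 74.7, 215 and 254 CPM in the same order, and Rpl41, which encodes a very short peptide of the ribosome, had 1127, 468, 1142 and 1300 CPM. In both, DMSO 2 alone was low and the other 3 libraries lay together.

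Rps27a was the 1 member lower with Aβ40 at an unadjusted p under 0.05. It encodes ubiquitin fused to a small subunit protein (ENSMUSG00000020460) and lies on chromosome 11 from 29545846 to 29548109 (mm10). It had 1929 and 1019 CPM in the DMSO libraries and 874 and 896 in the Aβ40 libraries. The groups did not overlap, but the Aβ40 values lay much closer to DMSO 2 than DMSO 2 lay to DMSO 1 (log2 fold change -0.74, SE 0.29; edgeR adjusted p = 0.371). Without DMSO 2 its log2 fold change was -1.14, and without DMSO 1 it was -0.21.

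In some members DMSO 1 was the highest library. Rplp2, an acidic protein of the stalk that recruits elongation factors, had 706 and 448 CPM in the DMSO libraries and 351 and 532 in the Aβ40 libraries (log2 fold change -0.39, SE 0.27; edgeR adjusted p = 0.599). Rps12-ps3 had 616, 275, 343 and 355 CPM, and Rps9, a protein bound early in small subunit assembly, had 2066, 1083, 1145 and 1619 CPM. Rps13, named after its values were seen, had 947, 457, 507 and 740 CPM. In all 4 the groups overlapped, with Aβ40 2 below DMSO 1 and above both DMSO 2 and Aβ40 1. All 50-base stretches of Rps12-ps3 (100%) are shared with other transcripts, so its reads may belong to them.

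**Figure D4:**
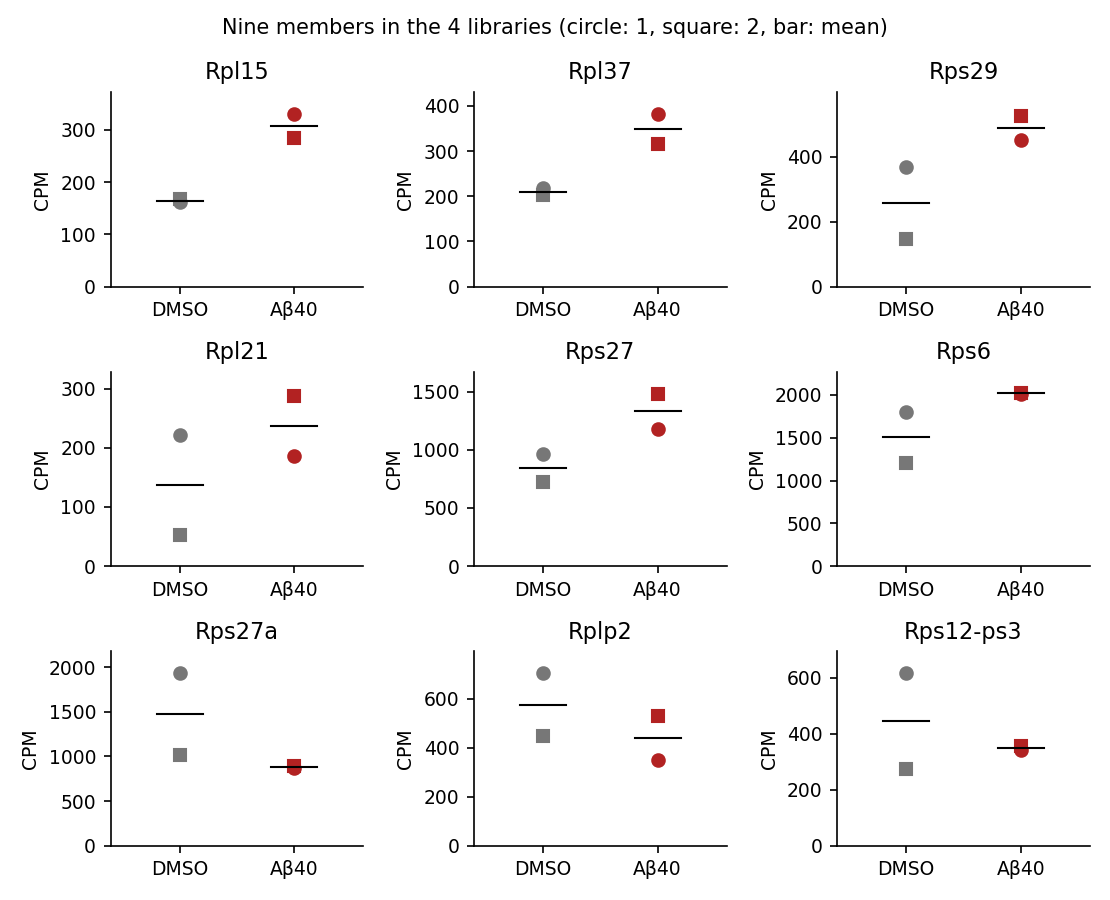
CPM of 9 members in the DMSO (grey) and Aβ40 (red) libraries, on axes from 0 that differ between panels, with circles for libraries numbered 1, squares for those numbered 2 and bars for group means. In Rpl15 and Rpl37 the DMSO points lie together below the Aβ40 points, in Rps29 and Rpl21 DMSO 2 is low, and in Rps27a, Rplp2 and Rps12-ps3 DMSO 1 is high.

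The stalk and its base differed in level per gene length. Rplp1 was the most abundant large subunit member at 3437, 1670, 2763 and 3475 FPKM (fragments scaled to gene length and library size) in DMSO 1, DMSO 2, Aβ40 1 and Aβ40 2. Rplp0, the base of the stalk, had 1310, 1013, 1309 and 1433 FPKM, and Rplp2 had 339, 215, 166 and 254 FPKM. The order Rplp1, Rplp0, Rplp2 held in each library, and FPKM depends on the annotated gene length, which is 499 bases for Rplp1 and 2072 for Rplp2.

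The most abundant small subunit members per length were Rps3a1, Rps14, Rps4x and Rps6. Rps3a1 had 3279, 1906, 3144 and 3202 FPKM in DMSO 1, DMSO 2, Aβ40 1 and Aβ40 2. DMSO 2 was the lowest and the other 3 libraries were nearly equal. Rps14, which is lost in a form of myelodysplastic syndrome, had 1697, 1133, 1578 and 1559 FPKM, so that Aβ40 lay between the DMSO libraries. Rps6, the target of the S6 kinases, had 1804, 1201, 2008 and 2025 CPM (log2 fold change 0.42, SE 0.23; edgeR adjusted p = 0.492), and Rps4x had 2101, 1375, 2386 and 2281 CPM (log2 fold change 0.43, SE 0.24; edgeR adjusted p = 0.501). In Rps6 and Rps4x both Aβ40 libraries lay above DMSO 1, by less than DMSO 2 lay below it.

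Among members known from disease or from roles outside the ribosome were Rpl5 and Rpl11, which bind Mdm2 together with the 5S RNA. DMSO 2 was the lowest library in both. Rpl5 had 1421, 890, 1784 and 1656 CPM in DMSO 1, DMSO 2, Aβ40 1 and Aβ40 2 and did not overlap between groups (log2 fold change 0.57, SE 0.25; edgeR adjusted p = 0.401). Rpl11 had 597, 287, 566 and 588 CPM and did overlap (log2 fold change 0.38, SE 0.30; edgeR adjusted p = 0.635). Rps19, the gene most often mutated in Diamond-Blackfan anaemia, had 735, 574, 756 and 838 CPM, and Rpsa, also known as the laminin receptor, had 2681, 1722, 2958 and 3131 CPM. Rps3, which also takes part in DNA repair, had 1608, 1013, 1602 and 1518 CPM, with the Aβ40 libraries just under DMSO 1.

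The paralog pairs were far apart in level. Per length, Rpl22 averaged 157 FPKM and Rpl22l1 58.1, Rpl7 578 and Rpl7l1 19.1, Rpl36a 205 and Rpl36al 1.09, and Rpl3 338 and its muscle paralog Rpl3l 1.35. Of the abundant partners, Rpl7 had 1464, 1054, 1954 and 1800 CPM and Rpl3, which lies near the peptidyl transferase centre, 986, 853, 1253 and 1241 CPM, so that neither overlapped between groups. Rpl36a had 371, 144, 396 and 457 CPM, with DMSO 2 far below the rest. Rps27 averaged 1031 FPKM and Rps27l, a p53 target, 87.2, and both were higher in each Aβ40 library than in each DMSO library. Rps27 had 965, 721, 1176 and 1482 CPM (log2 fold change 0.66, SE 0.22; edgeR adjusted p = 0.334), and Rps27l had 67.1, 44.6, 81.6 and 94.3 CPM (log2 fold change 0.65, SE 0.22; edgeR adjusted p = 0.334).

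Rps27rt, named after its values were seen, had 524, 210, 486 and 238 CPM in DMSO 1, DMSO 2, Aβ40 1 and Aβ40 2, an order that is neither that of the groups nor that of Rps27. Of the 50-base stretches of Rps27rt 91.1% and of Rps27 98.6% are shared with other transcripts, so how the reads were divided between them is uncertain. Rpl22l1 had 160, 69.6, 117 and 120 CPM and Rpl22 517, 268, 553 and 513 CPM, so both were lowest in DMSO 2. The paralogs Rpl39l and Rpl10l, known from testis, had 0 to 0.471 CPM, and Rpl39 had 848, 531, 880 and 759 CPM.

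Some genes of the ribosome's core set had few counts, or fewer than their pseudogenes, and they are reported as uncertain because how reads mapping to several places were handled is not given in the sources used here. Rps10, named after its values were seen, had only 159 counts in all 4 libraries together, while its 4 named pseudogenes had 14911, 14100 of them on Rps10-ps2. Of the exon bases of Rps10, 28.7% lie in other annotated genes as well, as do 47.0% of those of Rpl24 (144 counts, also named after its values were seen) and 35.4% of those of Rpl13a (1522 counts). A larger overlap did not go with few counts in Rpl35 (66.2%, 27432 counts) and Rpl23a (62.3%, 24995 counts), both named after their values were seen. Rpl17, named for the same reason, had 22469 counts against 58464 in its 11 named pseudogenes, most on Rpl17-ps3 (36467) and Rpl17-ps10 (20799). The counts of these members are not read here as the amount of their mRNA.

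The pseudogene entries as a whole took 0.238%, 0.198%, 0.263% and 0.282% of counts in DMSO 1, DMSO 2, Aβ40 1 and Aβ40 2, the same order of libraries as the members. Across the 85 structural members, the share of 50-base stretches found in other transcripts correlated weakly with mean FPKM (Spearman's rho 0.203, across genes, which are not independent replicates).

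The members' transcripts are short, with a median annotated length of 858 bases against 2990 for other genes of at least 5 CPM. Shorter transcripts were lower in DMSO 2 among other genes too. For transcripts up to 500 bases the median of DMSO 2 minus DMSO 1 was -1.10 on the log2 scale for 13 members and -0.71 for 36 other genes. From 1000 to 2000 bases it was -0.61 for 23 members and -0.19 for 1874 other genes, and above 2000 bases it was -0.65 for 6 members and 0.07 for 6415 other genes. The correlation of length with this difference was 0.314 across 82 members and 0.331 across 8796 other genes (Spearman's rho, as a description). Length correlated with the log2 fold change at -0.0784 in members and -0.237 in other genes. For GC content the values were -0.172 and -0.343 (Spearman's rho, as a description). A trend of GC content and length was removed over 8878 genes, 82 of them members. The median log2 fold change of these members was then 0.23 instead of 0.42, and that of other genes was -0.02. What part length or GC content has in the DMSO 2 values or the fold changes was not tested.

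**Figure D5:**
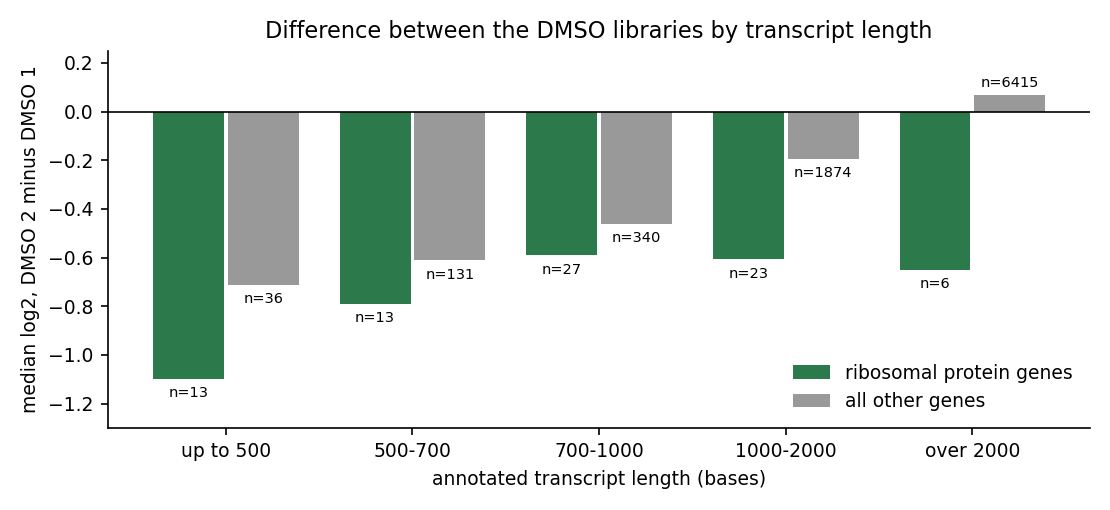
Median of log2 DMSO 2 minus DMSO 1 by annotated transcript length in bases, for ribosomal protein genes (green) and all other genes that averaged at least 5 CPM (grey), with the number of genes at each bar. Both sets are lowest among the shortest transcripts, at -1.10 and -0.71, and above 2000 bases the other genes reach 0.07 while the 6 members are at -0.65.

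Members with the pyrimidine run exactly at the annotated start had a median log2 fold change of 0.39 (13 tested), and those without it one of 0.44 (47 tested). In other genes the medians were 0.05 with the run (209 genes) and -0.02 without it (6985 genes). With the run within 10 bases of the start the order was the other way, at 0.45 with it (36 tested) and 0.39 without it (24 tested). The difference between the DMSO libraries had a median of -0.79 in members with the run exactly at the start and -0.67 in members without it.

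Other parts of the translation machinery were counted in the same way, and none of their genes was called by edgeR's quasi-likelihood test. Their counts below stand against 6.51% of all tested genes higher and 5.72% lower at an unadjusted p under 0.05, and 28.9% lowest in DMSO 2. Among ribosome components outside the naming rule, Rack1, a scaffold on the small subunit, had 1099, 924, 1306 and 1210 CPM in DMSO 1, DMSO 2, Aβ40 1 and Aβ40 2, and Fau, fused to a small subunit protein, had 1243, 842, 1093 and 1214 CPM. Among 8 elongation genes the median log2 fold change was 0.17. Eef1a1, which brings aminoacyl-tRNA to the ribosome and has a TOP motif, had 6321, 5561, 8276 and 7643 CPM (log2 fold change 0.42; edgeR adjusted p = 0.457), and Eef1b2, its exchange factor, had 873, 475, 639 and 779 CPM.

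Among 36 initiation genes the median log2 fold change was 0.01, with 6 higher and 1 lower at an unadjusted p under 0.05 (6.51% and 5.72% of all tested genes). Eif1, which guards start codon choice, had 1285, 1012, 743 and 917 CPM (log2 fold change -0.47; edgeR adjusted p = 0.418), and Pabpc1, the poly(A)-binding protein, had 1028, 959, 730 and 811 CPM. Both were lower in each Aβ40 library than in each DMSO library. Of 21 TOP mRNAs outside the ribosomal proteins, 17 had a positive log2 fold change and 15 were lowest in DMSO 2, with a median of 0.23. Tpt1, a TOP mRNA that encodes a calcium-binding protein, had 3399, 2509, 3676 and 3530 CPM.

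Of 41 ribosome biogenesis genes, 34 had a positive log2 fold change (median 0.27), 7 were higher and 0 lower at an unadjusted p under 0.05, and 23 were lowest in DMSO 2 (28.9% of all tested genes). Npm1, a nucleolar chaperone, had 532, 303, 653 and 625 CPM (log2 fold change 0.61; edgeR adjusted p = 0.395), and Ncl, nucleolin, had 288, 260, 353 and 363 CPM (log2 fold change 0.39; edgeR adjusted p = 0.414). The 14 genes of mTORC1 and TOP control had a median of 0.07, with 0 higher and 2 lower at an unadjusted p under 0.05. The 2 were Larp1, named after its values were seen, at 89.0, 86.4, 51.3 and 71.6 CPM (log2 fold change -0.51; edgeR adjusted p = 0.371) and Eif4ebp2, a repressor of cap binding, at 112, 143, 90.7 and 97.0 CPM (log2 fold change -0.44; edgeR adjusted p = 0.388). Rheb, the activator of mTORC1, had 106, 97.8, 114 and 113 CPM. The 77 tested mitochondrial ribosomal protein genes, which belong to another ribosome, had a median of 0.24, 54 with a positive log2 fold change, and 51 were lowest in DMSO 2. Of the 77, 12 were higher and 0 lower at an unadjusted p under 0.05 (6.51% and 5.72% of all tested genes). Mrpl33 had 183, 92.0, 130 and 141 CPM and Mrpl18 92.7, 56.9, 90.8 and 92.2 CPM.

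Markers of some other marrow cells differed between the groups. The 12 B cell markers were all higher with Aβ40 at an unadjusted p under 0.05, 5 of them called by edgeR's quasi-likelihood test, and together had 568, 653, 1254 and 1258 CPM in DMSO 1, DMSO 2, Aβ40 1 and Aβ40 2. Among the called genes were Vpreb1, a part of the precursor B cell receptor, and Vpreb3. The 8 eosinophil markers, with Ear6 called, had 1623, 1365, 3566 and 3611 CPM. The 12 T and NK cell markers, with Gzmb called, had 70.9, 67.4, 104 and 116 CPM. Of the 11 tested, 6 were higher and 0 lower at an unadjusted p under 0.05. Gzmb had 9.17, 8.55, 27.0 and 24.7 CPM. Nkg7, the most abundant of this list and named after its values were seen, had 40.6, 38.8, 40.1 and 49.6 CPM. The test called 0.126% of all genes. No marker of these 3 lists was at 0 in all libraries. The 8 erythroid markers together had 5042, 2114, 3494 and 3647 CPM, a sum made up mostly of globin mRNAs. DMSO 2 was lowest for 4 of the 7 tested, while Alas2 and Klf1, named after their values were seen, were higher in DMSO 2 than in DMSO 1. The 10 neutrophil precursor markers had 9246, 9706, 11780 and 10110 CPM, with a median log2 fold change of 0.09. Of this sum Chil3 alone, named after its values were seen, had 4650, 5535, 7539 and 5541 CPM. The 10 monocyte and macrophage markers had 2621, 2508, 3425 and 2960 CPM and the progenitor markers 128, 121, 110 and 126 CPM, with 0 called in either list by edgeR. Ly6c2 made up most of the monocyte and macrophage sum, at 1871, 1718, 2615 and 2233 CPM. In that list 4 markers were higher and 0 lower at an unadjusted p under 0.05 in edgeR's quasi-likelihood test. Of all tested genes 6.51% were higher and 5.72% lower. The 4 were C1qa, C1qb, C1qc and Mrc1, at low CPM, named like Ly6c2 after their values were seen. What part these cells have in the ribosomal protein values was not tested.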

How the data were processed

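RNA from 4 libraries of bone marrow neutrophils was sequenced. Per the submitters' processing notes, HISAT2 2.0.5, featureCounts 1.5.0-p3 and mm10 were used, and how reads with several matches or on overlapping genes were counted, the strand setting and the annotation release are unknown here. The authors deposited raw counts per gene and FPKM. The deposited FPKM equal counts divided by gene length and an effective library size, as checked on the values.

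Counts were tested in R 4.3.3 with edgeR 4.0.16 (filterByExpr, TMM, quasi-likelihood test on group, Benjamini-Hochberg adjustment over 13479 genes, threshold 0.05), which was tested on simulated data. CPM are TMM-scaled, and log2 differences between libraries use CPM + 0.5. Shares are summed raw counts over all counts. Groups were compared by exact permutation tests. GENCODE M21 gave transcript length, GC content and exon overlap, with 90 of 94 members at the same position, and RefSeq gave promoter windows.

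Members and gene lists were chosen with earlier results of these data known. The naming rule took the 4 most abundant members of each subunit by FPKM, the 4 highest and 4 lowest log2 fold changes at a mean of at least 5 CPM, fixed disease, assembly and paralog genes, and per other list up to 2 called genes in each direction or else the 2 most abundant. Alternatives were other scalings, filters and tools (DESeq2 1.42.0, limma 3.58.1), a replicate block, leaving out each library, and other denominators and members for the shares. A few genes are not reported here.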

Additional observations from a re-analysis of the deposited data

How the results depend on the processing

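Against 17 genes called by edgeR's quasi-likelihood test, DESeq2 called 135, the fit with no filter 255, limma on log2(FPKM + 1) and on log2(FPKM + 0.1) 0 each, and the fits without 1 library between 0 and 1276. Against 0 members called, DESeq2 called 2, the fit with no filter 7, and the fits without 1 library between 0 and 65; the cause was not tested. The members' median log2 fold change of 0.40 stayed between 0.37 and 0.44 under the other scalings, filters, tools and blocks, and ranged from 0.085 to 0.77 without 1 library. The replicate block, with the shared number as a term, called 27 genes and 0 members. The labels do not say that numbers pair samples, and deviations of DMSO 1 and Aβ40 1 from their group means correlated at -0.334 over 9312 genes. The crossed replicate block, chosen after seeing the data, put DMSO 1 with Aβ40 2 and DMSO 2 with Aβ40 1. It called 721 of 13479 genes, 445 higher and 276 lower with Aβ40, and 16 of 88 members, all higher.

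Among named members, 24 values reversed, all in fits without 1 library except some of Rps27rt. Over these fits, from lowest to highest, the log2 fold change ran from -0.045 to 0.75 for Rps3a1, -0.11 to 0.48 for Rps14, -0.14 to 0.91 for Rplp1, -0.062 to 1.00 for Rpl11, -0.056 to 0.62 for Rps3, -0.45 to 0.76 for Rpl22l1 and -0.062 to 0.62 for Rpl39, with the low end without DMSO 2 and the high end without DMSO 1. It ran from -0.24 (without Aβ40 2) to 0.91 (without DMSO 1) for Rpl3l and was -0.21 without DMSO 2. It ran from -0.83 (without DMSO 2) to 0.34 (without DMSO 1) for Rps12-ps3 and from -0.59 to 0.35 likewise for Rps9, which was at 0.04 without Aβ40 1. It ran from -0.61 (without DMSO 2) to 0.44 (without DMSO 1) for Rps13, which was at 0.07 without Aβ40 1, and from -0.35 (without DMSO 2) to 0.72 (without DMSO 1) for Rpl24, which was at -0.33 without Aβ40 1. Rps27rt, at -0.021 with all libraries, was at 0.0095 with upper-quartile scaling, 0.036 with limma-voom, 0.034 with the replicate block, 0.033 with the crossed block and 0.020 on both log2 FPKM scales, and ran from -0.63 (without Aβ40 1) to 0.78 (without DMSO 1), with 0.38 without Aβ40 2. No share or ratio changed direction. As a share of summed FPKM, however, the groups overlapped for all members, since Aβ40 1 lay below DMSO 1. The values were 8.24%, 6.39%, 8.17% and 8.78% in DMSO 1, DMSO 2, Aβ40 1 and Aβ40 2 (exact permutation test, 2-sided p = 0.667). Without 1 library the difference in share ranged from 0.441 to 2.53 percentage points for all members, 0.0407 to 1.16 for the small subunit and 0.400 to 1.37 for the large, and that in the ratio from 0.0647 to 0.0988. The alternatives without Rps27a, with equal weights and with the GC and length trend removed were also chosen after seeing the data. With 2 libraries a group, the number of libraries, not their depth, limits most members.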
